A study of Mus musculus with 8 samples.

Results

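The genes described here are 10 MAP kinase feedback inhibitors, taken by gene symbol from a table of 22274 genes: the dual specificity phosphatase genes Dusp1, Dusp4, Dusp5 and Dusp6, the Sprouty genes Spry1, Spry2 and Spry4, and the Spred genes Spred1, Spred2 and Spred3. All 10 were found, each in 1 row, and all 10 passed the filter on low counts that left 13702 genes to test. The RFB line, from mouse kidney and listed as fibroblast, was sequenced as 8 RNA libraries. The treatment label of 4 libraries gives TGF-β with ad-CRE, and that of the other 4 TGF-β with ad-GFP. The labels do not spell out these agents, whose names match a recombinase that acts at loxP sites (Cre) and a fluorescent protein (GFP). TGF-β, a cytokine that drives matrix production, was thus given in every library, at a dose and for a time that the labels do not state. The title and design text give the target of the series as Suv39h1, which encodes a histone H3 lysine 9 methyltransferase, and the title also names CXCL10. The design text speaks of knockdown (KD) derivatives, whereas the sources used here do not describe an allele for Cre. Nor do they say whether replicates were separate cultures, so the p-values rest on a spread among libraries that may be technical.

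Growth factor receptors signal through RAS, RAF and MEK to the ERK kinases, and active ERK induces genes whose products switch the same pathway off. Dual specificity phosphatases remove the activating phosphates from MAP kinases themselves. Sprouty proteins act higher up, between the receptor and RAF, and SPRED proteins bring the RAS inhibitor neurofibromin to the membrane. In the developing kidney, Sprouty1 is known for holding back RET signalling in the ureteric bud. Because transcription of many of these genes follows ERK activity, their RNA is widely read as a measure of pathway output. The amount of RNA does not by itself give the activity of the kinases, which was not measured.

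The 4 phosphatases share a catalytic loop, and the codons of that loop are shown to compare the genes. Any relation of these codons to the RNA changes was not tested. The capitals mark the 9 codons of the dual specificity phosphatase signature, which begins with the histidine and the catalytic cysteine, with 9 bases of flanking coding sequence on each side. The sequences were read from the GENCODE M21 transcripts, 5′ to 3′ on the coding strand.
Dusp1: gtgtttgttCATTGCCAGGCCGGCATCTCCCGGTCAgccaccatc
Dusp4: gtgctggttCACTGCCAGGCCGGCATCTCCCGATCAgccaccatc
Dusp5: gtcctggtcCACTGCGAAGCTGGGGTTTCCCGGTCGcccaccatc
Dusp6: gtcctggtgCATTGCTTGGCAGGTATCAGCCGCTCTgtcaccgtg
In GRCm38 the stretch lies at chr17:26506580-26506624 on the minus strand in exon 4 of 4 of Dusp1, and at chr8:34818424-34818468 on the plus strand in exon 4 of 4 of Dusp4. It lies at chr19:53540942-53540986 on the plus strand in exon 4 of 4 of Dusp5, and at chr10:99266018-99266062 on the plus strand in exon 3 of 3 of Dusp6. Dusp1 and Dusp4 had the same base at 25 of the 27 positions of the signature, against 19 for Dusp1 and Dusp5 and 15 for Dusp5 and Dusp6.

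Of the 10 genes, 7 rose and 3 fell in the ad-CRE libraries (edgeR quasi-likelihood test, adjusted p under 0.05 over all genes tested). The level of Spry2 was 2.07-fold and that of Spry1 1.72-fold that in ad-GFP, while Dusp4 fell to 0.520 of its ad-GFP level. Dusp1, Dusp5, Dusp6, Spry4 and Spred3 rose by smaller amounts, and Spred1 and Spred2 fell. The same test called 73.1% of all genes tested, with 36.8% higher and 36.3% lower in ad-CRE, so that passing it is not particular to these genes. The groups were apart in all 10 genes, and in 66.2% of all genes tested. The median log2 fold change of the members was 0.29, against 0.00 for all genes tested, and the median of its absolute size was 0.38, against 0.32. With a change of at least 0.5 log2 units required as well, Dusp1, Spry1 and Spry2 remained as rises and Dusp4 as a fall, where 33.9% of all genes tested passed.

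**Figure D1:**
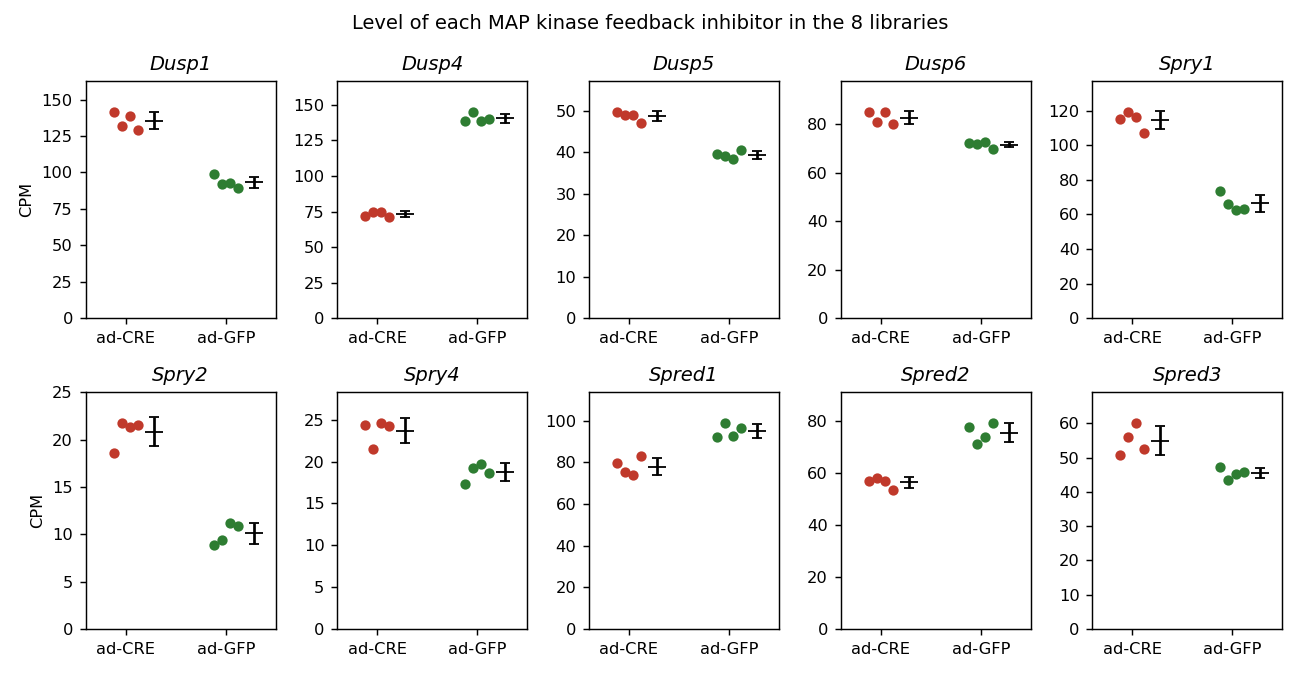
CPM of each of the 10 genes in the 4 ad-CRE (red, left) and 4 ad-GFP (green, right) libraries, with 1 point per library and the mean ± SD as a black bar, each axis starting at 0. The groups are apart in every panel, with ad-CRE below ad-GFP in Dusp4, Spred1 and Spred2 and above it in the other 7.

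Library totals were 17572152 to 22297598 counts in ad-CRE and 15998257 to 20920828 in ad-GFP, and Spry2, the gene of the 10 with the fewest reads, rested on 1666 reads in ad-CRE and 741 in ad-GFP. Suv39h1, which the series names as its target, was at 32.5 ± 0.795 CPM in ad-CRE and 41.5 ± 3.16 CPM in ad-GFP (mean ± SD, n = 4 each), a log2 fold change of −0.35 (edgeR adjusted p = 8.65e-07). Smarca4, which encodes the chromatin remodelling ATPase BRG1, was at 34.3 ± 3.20 CPM in ad-CRE and 288 ± 11.1 CPM in ad-GFP, 8.40-fold lower (log2 fold change −3.07). The fall of Smarca4 is far larger than that of the gene the series names, and it is uncertain which gene was altered in the ad-CRE libraries, or whether they belong to the Suv39h1 experiment of the title. Every difference between ad-CRE and ad-GFP given here is therefore a difference between libraries with those labels, and is not tied to the loss of either gene. Cxcl10 was at 123 ± 5.93 CPM in ad-CRE and 17.4 ± 2.27 CPM in ad-GFP. The markers go in part against the label fibroblast. Of 12 fibroblast markers 10 were tested, of which 9 fell and 1 rose, with a summed FPKM of 338 to 363 in ad-CRE and 796 to 839 in ad-GFP, most of it from Vim. Lum and Fap were near 0. Of 10 epithelial markers 9 rose and 1 did not pass. Their sum was 2672 to 2773 FPKM in ad-CRE and 1174 to 1318 FPKM in ad-GFP, most of it from Krt8 and Krt18. Endothelial markers fell in 8 of 8 tested, with sums of 24.7 to 29.0 FPKM in ad-CRE and 60.3 to 66.1 FPKM in ad-GFP. Leukocyte markers fell in 5 of 6 tested, with sums of 85.9 to 90.8 FPKM in ad-CRE and 129.9 to 150.1 FPKM in ad-GFP. Cd3e was at 0 in every library. The part of these shifts in the changes of the feedback inhibitors was not tested, and in bulk RNA fewer cells of a type and less RNA per cell cannot be told apart.

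Dusp1 encodes MKP-1, a nuclear phosphatase induced early by growth factors and stress that acts on p38 and JNK as well as ERK. It had 141, 132, 139 and 129 CPM (counts scaled to a common library size) in ad-CRE replicates 1 to 4, against 98.6, 91.8, 92.6 and 89.4 CPM in ad-GFP replicates 1 to 4. The lowest ad-CRE library lay well above the highest ad-GFP library. Its log2 fold change was 0.54 (SE 0.036, edgeR adjusted p = 2.95e-14), and 32.1% of all genes tested changed by at least as much in either direction. The gene (ENSMUSG00000024190, GRCm38 chr17:26505590-26562128, minus strand) is protein-coding. GENCODE M21 gives it a long span that overlaps the abundant Ergic1 on the plus strand (135 to 158 FPKM over the 8 libraries), but the exons of Dusp1 and Ergic1 share only 11 of the 3311 exonic bases of Dusp1.

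Dusp4 encodes MKP-2, another nuclear phosphatase of ERK and JNK, and fell in these libraries. It had 71.8, 74.8, 74.8 and 70.8 CPM in ad-CRE, against 139, 145, 138 and 139.9 CPM in ad-GFP, replicates 1 to 4 in each. Within each group the libraries were close together, with means of 73.1 ± 2.05 CPM in ad-CRE and 140.5 ± 3.07 CPM in ad-GFP (SD, n = 4). The log2 fold change was −0.94 (SE 0.034, edgeR adjusted p = 3.68e-21), the smallest p among the 10 genes, and 15.6% of all genes tested changed by at least as much. The gene (ENSMUSG00000031530, chr8:34807297-34819894, plus strand) overlaps no other annotated gene.

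Dusp5 and Dusp6 encode phosphatases with a preference for ERK, the first nuclear and the second, also called MKP-3, cytoplasmic. Dusp5 had 49.7, 49.1, 49.0 and 47.0 CPM in ad-CRE replicates 1 to 4, against 39.6, 39.1, 38.4 and 40.6 CPM in ad-GFP. Dusp6 had 85.10, 81.02, 85 and 80.04 CPM in ad-CRE, against 72.09, 72.05, 72.58 and 69.88 CPM in ad-GFP. In each gene the groups were apart but close. The log2 fold changes were 0.31 for Dusp5 (SE 0.044, edgeR adjusted p = 3.37e-07) and 0.21 for Dusp6 (SE 0.037, edgeR adjusted p = 8.74e-06). The change of Dusp6 was the smallest of the 10. Changes at least as large as that of Dusp5 were found in 51.6% of all genes tested, and at least as large as that of Dusp6 in 64.3%. The genes lie at chr19:53529109-53542431 (ENSMUSG00000034765) and chr10:99263231-99267489 (ENSMUSG00000019960), both on the plus strand. An antisense gene shares 547 of the 2473 exonic bases of Dusp5, and since it is not given whether counting used strand, reads of the pair may be counted together.

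Of the Sprouty genes, Spry2 had the largest rise among all 10 members. It had 18.5, 21.8, 21.4 and 21.6 CPM in ad-CRE replicates 1 to 4, against 8.85, 9.44, 11.2 and 10.9 CPM in ad-GFP. Every ad-CRE library lay far above every ad-GFP library, with replicate 1 the lowest of ad-CRE. On the log2 scale the fold change was 1.05 (SE 0.080, edgeR adjusted p = 5.99e-13), a size reached by 13.2% of all genes tested. Spry2 (ENSMUSG00000022114, chr14:105891947-105896819, minus strand) encodes an inhibitor that binds the adaptor GRB2 and the ubiquitin ligase CBL.

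Spry1, the Sprouty gene with the highest level in this line, had 115, 119, 116 and 107 CPM in ad-CRE, against 73.5, 66.1, 62.7 and 63.1 CPM in ad-GFP, replicates 1 to 4 in each. Replicate 1 was the highest of the ad-GFP libraries, still well below ad-CRE. The log2 fold change was 0.78 (SE 0.043, edgeR adjusted p = 2.76e-16), and 20.5% of all genes tested changed by at least as much. The gene (ENSMUSG00000037211, chr3:37639947-37644598, plus strand) shares 710 of its 2906 exonic bases with a transcript on the other strand that GENCODE lists as still to be tested, so its reads carry the same doubt as those of Dusp5. Spry4, whose product acts on RAF activation, had 24.4, 21.5, 24.7 and 24.3 CPM in ad-CRE, against 17.3, 19.3, 19.8 and 18.6 CPM in ad-GFP. Its groups came close, since ad-CRE replicate 2 was little above the highest ad-GFP library. For Spry4 the log2 fold change was 0.34 (SE 0.063, edgeR adjusted p = 1.72e-05), a size reached by 47.6% of all genes tested. Spry4 (ENSMUSG00000024427) lies at chr18:38586247-38601415 on the minus strand.

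The Spred genes moved in both directions. Spred1, the gene mutated in Legius syndrome in humans, had 79.6, 75.3, 73.8 and 82.9 CPM in ad-CRE, against 92.3, 99.0, 92.6 and 96.3 CPM in ad-GFP. Spred2 had 57.0, 58.1, 56.7 and 53.4 CPM in ad-CRE, against 77.6, 71.2, 73.6 and 79.3 CPM in ad-GFP. In both genes every ad-CRE library lay below every ad-GFP library, with a wider gap in Spred2. The log2 fold changes were −0.29 for Spred1 (SE 0.039, edgeR adjusted p = 1.18e-07) and −0.42 for Spred2 (SE 0.042, edgeR adjusted p = 2.93e-10). Changes at least as large were found in 53.7% and 40.4% of all genes tested. Spred3 encodes the member of the family that lacks a working KIT-binding domain. It had 50.9, 56.1, 60.2 and 52.6 CPM in ad-CRE, against 47.3, 43.6, 45.3 and 45.7 CPM in ad-GFP. Its ad-CRE libraries were higher and more scattered. Spred3 rose by 0.27 on the log2 scale (SE 0.050, edgeR adjusted p = 1.28e-05), and 55.4% of all genes tested changed by at least as much. Spred1 (ENSMUSG00000027351) lies at chr2:117121374-117182279 and Spred2 (ENSMUSG00000045671) at chr11:19924375-20024026, both on the plus strand. Spred3 (ENSMUSG00000037239, chr7:29158829-29170411, minus strand) shares 202 of its 6218 exonic bases with the oppositely directed Ggn, which was listed at no more than 0.82 FPKM in any library. The 10 genes lie on 10 different chromosomes, so no 2 are neighbours.

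**Figure D2:**
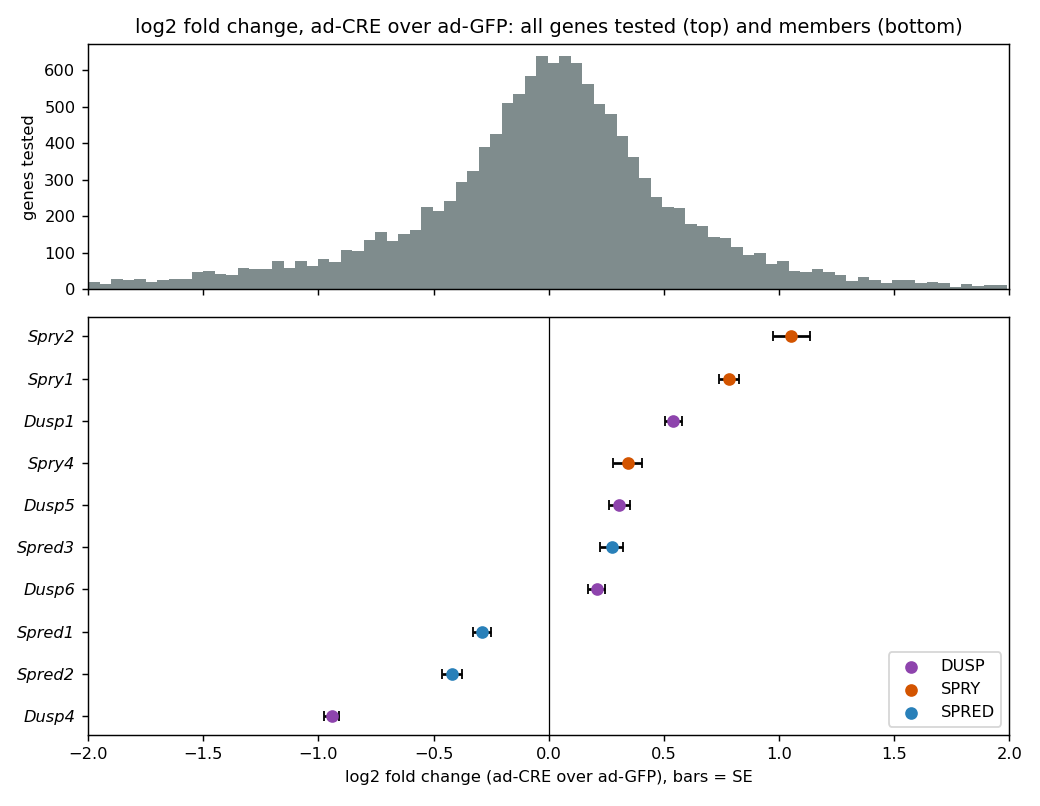
Log2 fold change, ad-CRE over ad-GFP, of all genes tested as a histogram (top; 531 genes at or beyond 2 in either direction lie outside the axis) and of the 10 members with their SE (bottom), coloured by family. The members run from −0.94 for Dusp4 to 1.05 for Spry2, inside the range drawn for all genes.

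Whether members of 1 family changed by different amounts was tested on the log2 ratio of 2 genes within each library, which, apart from the 0.5 CPM added to each value, does not depend on library scaling. Of 12 pairs compared, 9 passed (two-sided exact permutation test over the 8 libraries, adjusted over the 12 pairs). The smallest p this design can give is 0.0286, and each of those 9 pairs reached it, with groups that did not overlap. Adjustment gave 0.0381 because 9 of the 12 pairs tied at that smallest p. No pair thus passed on its own, since each call depends on the other pairs at the same p. Pairs of other genes were not tested, and 66.2% of all single genes tested had groups apart. The count of 9 is thus not shown to be particular to these families, and the pairs share genes.

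The Dusp1 to Dusp4 ratio moved the most. Its mean log2 value was 0.89 ± 0.066 in ad-CRE and −0.59 ± 0.076 in ad-GFP (SD, n = 4 each), a difference of 1.48 (exact permutation adjusted p = 0.0381). The lowest ad-CRE library was at 0.82 and the highest ad-GFP library at −0.49. Dusp4 also fell relative to Dusp5 (difference −1.24) and Dusp6 (−1.15), and Dusp1 rose relative to Dusp5 (0.24) and Dusp6 (0.33). The Dusp5 to Dusp6 ratio did not pass, with a difference of 0.10 (exact permutation adjusted p = 0.0686), though it passed without ad-GFP replicate 4 (difference 0.12, exact permutation adjusted p = 0.0343). Among the Sprouty genes, Spry1 and Spry2 each rose relative to Spry4 (differences 0.45 and 0.68). The call for Spry1 against Spry4 was lost when any 1 of the 4 ad-CRE libraries was left out (exact permutation adjusted p of 0.0686 to 0.0762). The ratio of Spry1 to Spry2 had a difference of −0.23 and did not pass (exact permutation adjusted p = 0.143). Spred1 and Spred2 each fell relative to Spred3 (−0.56 and −0.69), while the ratio between them had a difference of 0.13 and did not pass (exact permutation adjusted p = 0.143). A ratio that missed the threshold with 4 libraries a group does not show that the 2 genes changed alike.

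**Figure D3:**
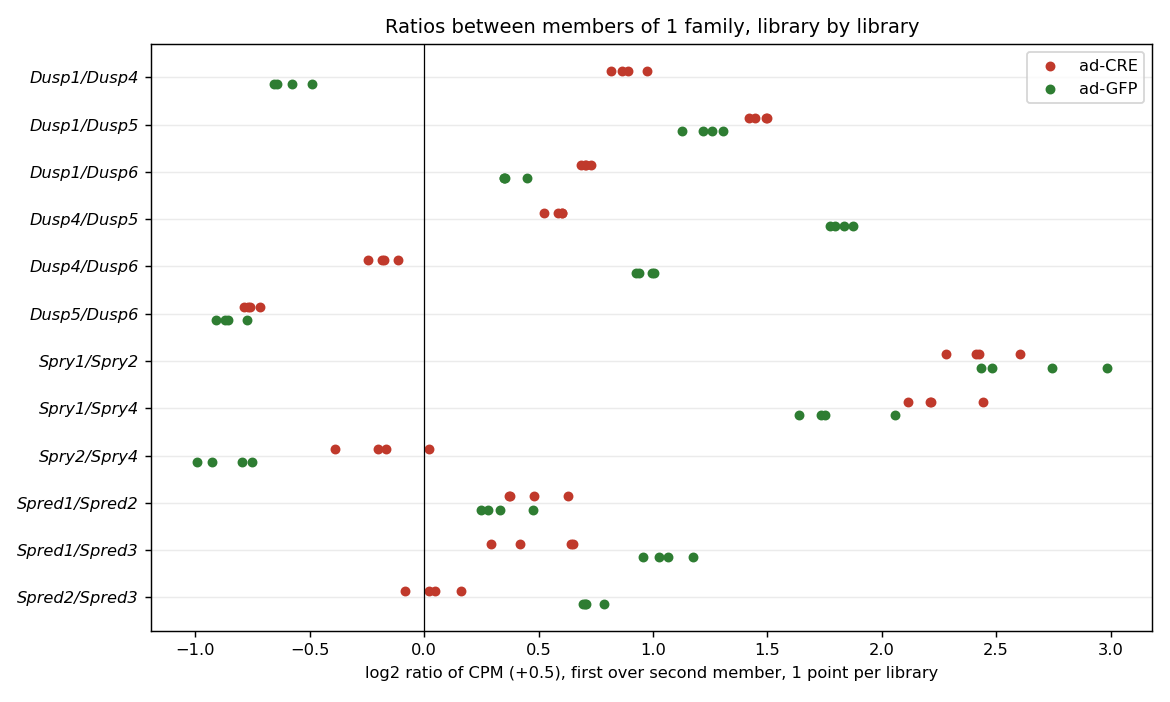
Log2 ratio of the CPM (with 0.5 added) of the first to the second gene of each pair, with 1 point per library, ad-CRE in red above ad-GFP in green. The points of the groups are apart in 9 of the 12 pairs and overlap for Dusp5/Dusp6, Spry1/Spry2 and Spred1/Spred2.

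Levels of different genes were compared per length, with the FPKM values the authors deposited (reads scaled by length and library size). The length used was not fixed for every gene. Nras, for example, had 209 CPM and 71.9 FPKM in ad-CRE replicate 1, and 212 CPM and 104.5 FPKM in ad-CRE replicate 4. Dusp1 was the most abundant of the 10 in ad-CRE, at 69.2 ± 3.54 FPKM, and Dusp4 the most abundant in ad-GFP, at 51.7 ± 1.17 FPKM (mean ± SD, n = 4 each). In ad-CRE the order ran from Dusp1 over Spry1 (45.4 ± 2.05 FPKM), Dusp6, Dusp4, Dusp5, Spred2, Spred3, Spred1 and Spry2 to Spry4 (4.94 ± 0.307 FPKM). The libraries of Spred2 and Spred3, and those of Spred3 and Spred1, overlapped in that order. In ad-GFP the order ran from Dusp4 over Dusp1, Spry1, Dusp6, Spred2, Spred1, Dusp5, Spred3 and Spry2 to Spry4 (3.98 ± 0.231 FPKM). There the libraries of Spry1 and Dusp6, and those of Spred1 and Dusp5, overlapped. Spry4 was therefore the lowest in both groups, and the lead among the phosphatases lay with a different gene in each.

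Summed over the 4 phosphatase genes, the level per length overlapped between the groups while its make-up differed. The sum was 144 ± 5.12 FPKM in ad-CRE and 142 ± 2.35 FPKM in ad-GFP (SD, n = 4). Dusp4 made up 17.4% to 18.9% of that sum in ad-CRE and 35.6% to 37.3% in ad-GFP. Dusp1 made up 47.2% to 49.1% in ad-CRE and 32.9% to 35.1% in ad-GFP. The sum of the 3 Sprouty genes was 60.2 ± 1.89 FPKM in ad-CRE and 35.8 ± 1.38 FPKM in ad-GFP, and Spry1 gave 73.5% to 76.7% of it in ad-CRE and 72.7% to 79.0% in ad-GFP. The 3 Spred genes summed to 41.5 ± 0.541 FPKM in ad-CRE and 48.3 ± 1.58 FPKM in ad-GFP. Spred3 made up 30.2% to 34.9% of the Spred sum in ad-CRE and 22.8% to 24.1% in ad-GFP. These sums describe the chosen genes and were not tested.

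**Figure D4:**
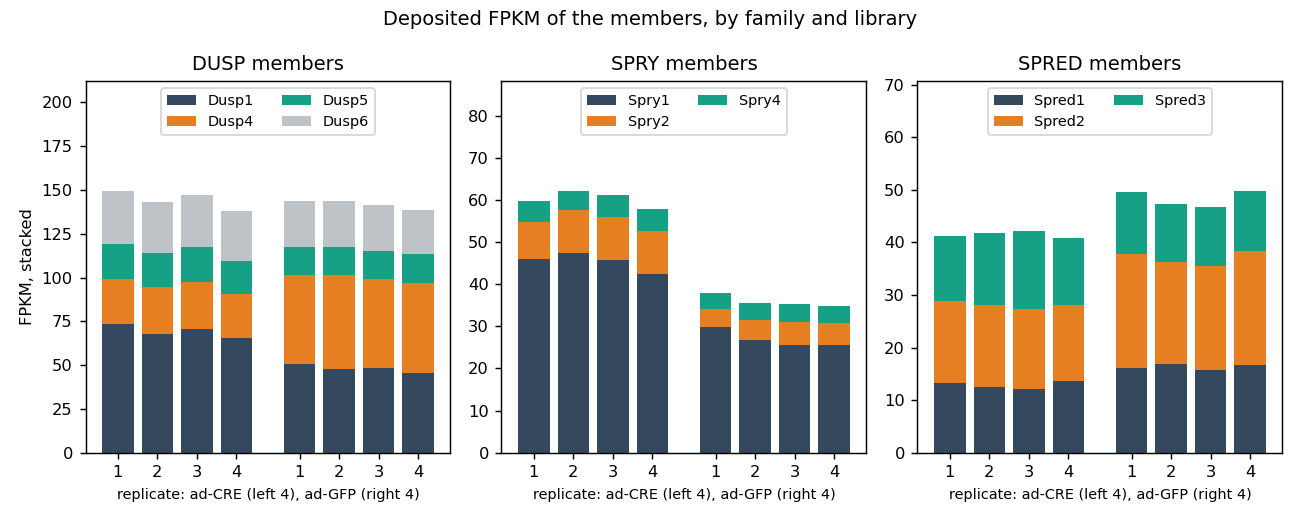
Deposited FPKM of the members stacked by family, 1 bar per library, with ad-CRE replicates 1 to 4 on the left of each panel and ad-GFP replicates 1 to 4 on the right. The phosphatase bars overlap in height, with a smaller Dusp4 and a larger Dusp1 part in ad-CRE, the Sprouty bars are taller in ad-CRE (57.7 to 62.1 FPKM, against 34.8 to 37.8 FPKM in ad-GFP), and the Spred bars are lower.

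Upstream sequence was available for 8 of the 10 genes, Dusp4 and Spry4 excepted, as the 250 bases before the RefSeq transcription start in GRCm38.p6. That start lay inside the GENCODE gene span by 53656 bases in Dusp1, 1764 in Spred3, 67 in Spred2 and 36 in Dusp5. Those windows thus lie partly or wholly within the annotated gene. It was searched on both strands for the ETS core GGAAG, the AP-1 site TGANTCA, the cAMP response element TGACGTCA, which is bound by CREB, and the CArG box, which is bound by SRF. The cAMP response element and the CArG box each matched in 1 gene, and the stretches around them are shown because both motifs are rare in promoters. Capitals mark the matches, the cAMP response element in Dusp1 (chr17:26508588-26508665, minus strand) and 2 CArG boxes lying end to end in Dusp5 (chr19:53529013-53529102, plus strand).
Dusp1: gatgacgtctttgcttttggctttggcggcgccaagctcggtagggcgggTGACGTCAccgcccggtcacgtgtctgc
Dusp5: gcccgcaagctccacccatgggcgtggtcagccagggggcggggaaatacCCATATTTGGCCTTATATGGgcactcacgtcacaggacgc
Among 32851 windows of the same length from all genes, 1.55% held a cAMP response element and 1.47% a CArG box. The ETS core was found in 5 of the 8 genes (Dusp5, Dusp6, Spred1, Spred2 and Spred3) and in 64.1% of all windows, and the AP-1 site in none of the 8 and in 6.75% of all windows. No match of any of the 4 motifs lay in the windows of Spry1 and Spry2, the genes with the largest rises. The ETS core was present in genes that rose and in genes that fell. These matches describe the letters in a short window and carry no information on binding.

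The surrounding pathway was described with gene lists. Their counts are to be read beside those of all genes tested, of which 36.8% rose and 36.3% fell. Among 20 genes of the RAS to ERK cascade there were 8 rises and 5 falls, while 7 missed the threshold, and the median log2 fold change was 0.05. That balance depended on the scale, with 6 rises and 8 falls on log2(FPKM + 1). Nras, a RAS gene, rose by 0.68 on the log2 scale (SE 0.029), and Sos1, a RAS activator, by 0.28 (SE 0.034). Map2k1, which encodes MEK1, had −0.63 (SE 0.035) and Rps6ka2, a kinase downstream of ERK, −1.33 (SE 0.054).

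Of 6 other MAP kinase phosphatase genes, 2 rose, 3 fell and 1 did not pass. Dusp10, whose product acts on p38 and JNK, was at 17.6 ± 0.593 CPM in ad-CRE and 38.9 ± 0.426 CPM in ad-GFP (SD, n = 4), a log2 fold change of −1.15 (edgeR adjusted p = 2.45e-18). Dusp2, at 3.22 CPM in ad-CRE and 4.88 CPM in ad-GFP, had −0.59, while Dusp8 and Dusp16 rose by 0.33 and 0.20. Of 14 other brakes on receptor to ERK signalling tested, 6 rose, 3 fell and 5 did not pass, with 2 to 4 falls over 17 alternative fits. Errfi1, an inhibitor of the EGF receptor kinase, was at 497 ± 8.89 CPM in ad-CRE and 199 ± 5.43 CPM in ad-GFP (SD, n = 4), a log2 fold change of 1.32 (edgeR adjusted p = 1.61e-27). Il17rd, which encodes the FGF pathway inhibitor SEF, was at 125 ± 2.005 CPM in ad-CRE and 47.5 ± 1.05 CPM in ad-GFP, a log2 fold change of 1.39 (edgeR adjusted p = 8.91e-25). Cbl, Rasal2 and Pebp1 rose by 0.54, 0.68 and 0.41.

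Among 15 ERK output genes there were 8 rises and 6 falls, while 1 gene missed the threshold, and the median log2 fold change was 0.15. Over 17 alternative fits the number of falls was 5 or 6. Ccnd1, the G1 cyclin gene, rose by 0.61 (612 ± 12.02 CPM in ad-CRE and 400.4 ± 6.72 CPM in ad-GFP), Epha2 by 0.57 and Ier3 by 0.48. Fosl1, the gene for the AP-1 subunit FRA-1, had −1.13 (8.52 ± 0.752 CPM in ad-CRE and 18.6 ± 1.07 CPM in ad-GFP), and the chromatin protein gene Hmga2 −1.32. Of 10 genes of the JNK and p38 branches, whose MAP kinases are also substrates of MKP-1, 6 rose, 2 fell and 2 did not pass. Over 17 alternative fits, 5 or 6 of them rose and 2 or 3 fell. Mapk13, a p38 gene, rose by 1.01, Mapk8, which encodes JNK1, by 0.31, Map2k3 by 0.29 and Map2k4 by 0.15, while Mapk14, the gene for p38α, had −0.26. Each list thus held genes that rose and genes that fell, as the feedback inhibitors did.

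**Figure D5:**
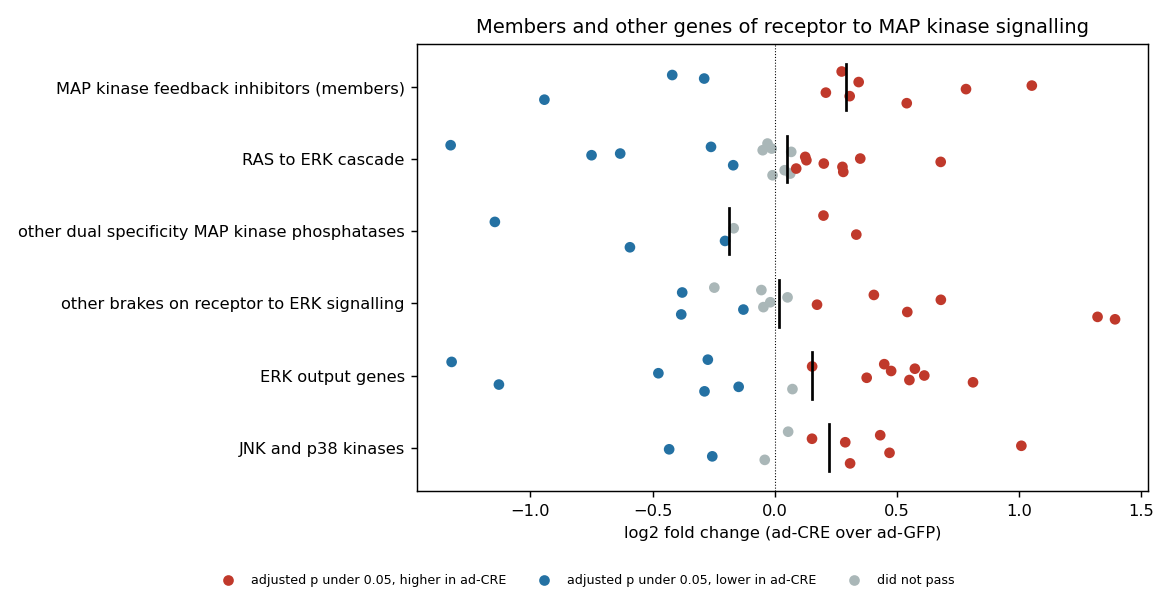
Log2 fold change, ad-CRE over ad-GFP, of the 10 members and of the tested genes of 5 lists of the surrounding pathway, 1 point per gene, coloured by whether it passed and in which direction, with the median of each list as a black line. Every list has points on both sides of 0, and the medians lie between −0.19 and 0.29.

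In the deposited annotation, 8 of the 10 genes carry the term for negative regulation of the ERK cascade (not Dusp5 and Spred3), and the 4 phosphatases alone carry the KEGG MAPK pathway. Of 253 tested genes with that KEGG label, 103 rose and 88 fell, and their median log2 fold change was 0.04. Of all genes tested, 36.8% rose and 36.3% fell. In the authors' deposited table the log2 fold changes of the 10 genes, made from mean FPKM, ran from −0.97 for Dusp4 to 1.02 for Spry2, each with the sign found here.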

How the data were processed

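Per the labels' protocols, an RNeasy kit was used for RNA and a SMARTer kit for libraries. GRCm38 and mm10 are the builds in the submitters' processing notes. The sources used here give no aligner, counter, strand setting or test. The authors deposited, per the file headers, whole-number read counts and FPKM values per library, their mean FPKM, a log2 fold change, and p-values with FDR.

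Counts of 4 ad-CRE and 4 ad-GFP libraries were tested with edgeR 4.0.16 (R 4.3.3): filterByExpr by group, TMM factors, the quasi-likelihood test with the group as the only term, and Benjamini-Hochberg adjustment over 13702 genes at 0.05. CPM are counts scaled to library size with TMM factors, and an SE is the log2 fold change divided by the square root of F. Ratios between members were compared by two-sided exact permutation tests of the absolute mean difference over 70 splits. DESeq2 1.42.0 and limma 3.58.1 served as alternatives, and the tests were checked on simulated data. All deposited per-library columns were matched by sample title. Replicates of 1 group differed by more than counting noise (chi-square per degree of freedom 1.71 to 3.24), so all 8 libraries were kept. That spread does not show that replicates were separate cultures. The common biological coefficient of variation estimated by edgeR was 0.032. Depth was 15998257 to 22297598 counts, which gave the member with the fewest reads, Spry2, 175 to 462 per library.

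Members and lists were chosen with earlier results of these data known. Named from each list were the 4 tested genes of smallest p-value and the 2 of highest mean FPKM, apart from a gene that is not reported here. All 10 gene IDs were found in GENCODE M21 (GRCm38). Upstream sequences are RefSeq's (GRCm38.p6). Protein sequences were not used here. Figures were drawn with matplotlib 3.10.9.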

Additional observations from a re-analysis of the deposited data

Results flagged for a closer look

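In 74 groups of 4 libraries (members, check genes and list genes chosen by the naming rule, in ad-CRE and in ad-GFP), 6 held 1 library whose gap to its nearest neighbour took up most of the range of the group. Chance gives about 1 such group in 20. Of these, 2 concern feedback inhibitors, in different libraries. Spry2 was at 18.5 CPM in ad-CRE replicate 1, against 21.4 to 21.8 CPM in the other ad-CRE libraries, and its log2 fold change without that library was 1.11, against 1.05 with it. Spry4 was at 21.5 CPM in ad-CRE replicate 2, against 24.3 to 24.7 CPM in the others, and its log2 fold change without that library was 0.39, against 0.34. The other 4 are single values of genes around them. Map2k3 was at 77.6 CPM in ad-CRE replicate 3, against 75.4 to 75.8 CPM. Cxcl10 was at 14.04 CPM in ad-GFP replicate 4, against 18.3 to 18.8 CPM, and Dusp16 at 84.0 CPM in the same library, against 77.6 to 78.5 CPM. Hmga2 was at 145 CPM in ad-GFP replicate 3, against 139 to 140.2 CPM.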

How the results depend on the processing

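All 10 feedback inhibitors kept their direction and passed in each of 17 alternative fits: other library scalings and filters, DESeq2, limma voom, the FPKM scales, the replicate block and leaving out each library. Their counts of 7 higher and 3 lower were the same in all of these, and with a threshold of 0.01. Over the same settings 4210 to 5346 of all genes were higher and 4156 to 5419 lower, so such stability is not particular to the members. With a change of at least 0.5 log2 units required, 3 members were higher and 1 lower, where 33.9% of all genes tested passed. The lowest and highest log2 fold changes without 1 library were 0.99 and 1.11 for Spry2 and −0.95 and −0.93 for Dusp4. The 9 pairs that passed did so with each pseudocount and with FPKM, and the other 3 did not. Without 1 library (exact two-sided permutation test over 35 splits), 8 of those 9 pairs passed whichever library was left out. Spry1 to Spry4, with differences of 0.39 to 0.54, did not pass without any 1 ad-CRE library and passed without any 1 ad-GFP library. Dusp5 to Dusp6, with differences of 0.076 to 0.12, passed only without ad-GFP replicate 4. On the log2(FPKM + 1) and log2(FPKM + 0.1) scales, 8 genes of the RAS to ERK cascade were lower and 6 higher, against 5 lower and 8 higher. Same-numbered libraries had correlations of deviations of −0.07 to 0.07, inside the range of −0.128 to 0.109 of the other combinations. That is no sign of pairing by number, but so few libraries cannot exclude it. With the replicate block, 5011 genes were higher and 4952 lower, against 5047 and 4975. Scaling by total counts moved the median of all genes tested to −0.03.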
